A study of Mus musculus with 5 samples.

Results

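The mouse stefin A cluster is a run of small, closely related cystatin genes on chromosome 16. The 7 genes described here, Stfa2l1, Cstdc4, Stfa1, Cstdc6, Cstdc5, Stfa2, and Stfa3, are all those of chromosome 16 with a symbol that starts with Stfa or is Cstdc4, Cstdc5, or Cstdc6, out of 17058 genes listed in at least 1 library, and each was found by its Entrez Gene number. The cluster was selected on the measured values themselves, for the rise of Cstdc5 and Stfa2l1 in the comparison reported here. The levels and fold changes of its genes in that comparison are therefore a description, without a test.

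The RNA came from Balb/c bone marrow–derived macrophages (BMDMs), grown from marrow with M-CSF and cocultured for 48 hours with 4T1 cells, a mouse mammary carcinoma line, across a porous membrane. In 2 libraries (WT) the 4T1 cells were wild type, and in 3 libraries (KO) they were Adam17-/- cells, all of the knock-out designation 2.8. ADAM17 is a protease that sheds growth factors and cytokines from the cell surface, and it was deleted in the cancer cells, so that the sequenced macrophages carried the same genotype in both groups. Because all 3 KO libraries carry 1 knock-out designation, an effect of Adam17 and other features of that line cannot be told apart. The labels do not say whether the repeats came from separate mice or cultures, so the spread between them may be technical, and they name no batch or date. The libraries held 14658694 to 20788373 counts, and their TMM scaling factors were 0.920 and 0.963 in WT and 1.04 to 1.05 in KO.

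Stefins, or type 1 cystatins, are small intracellular proteins that bind tightly and reversibly in the active site of papain-like cysteine proteases such as the cathepsins. Where humans have a single stefin A gene, the mouse has a tandem array of copies, and the mouse copies are known for their abundance in neutrophils and other myeloid cells. Stefin B is encoded by a gene elsewhere in the genome and is found in most cells.

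In the GRCm38.p6 annotation the 7 genes span 298.6 kb, chr16:36156811-36455392. Stfa2l1 (Entrez Gene 268885) comes first at chr16:36156811-36161948, followed by Cstdc4 (433016, also named Gm5483) at chr16:36184212-36188111 and Stfa1 (20861) at chr16:36277148-36285371. These 3 lie on the plus strand. Cstdc6 (100038854) at chr16:36321665-36334332, Cstdc5 (100034684) at chr16:36359382-36367570, Stfa2 (20862) at chr16:36403946-36408363, and Stfa3 (20863) at chr16:36450537-36455392 lie on the minus strand. Each gene was represented by 1 transcript in the files, and each GENCODE transcript has 3 exons and codes for 96 to 103 amino acids.

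How far reads could be told apart between copies was read from the coding sequences (GENCODE transcripts of GRCm38). Over the 21 pairs of genes, the aligned coding bases were 78.0% to 98.0% identical, with a median of 81.7%. The closest pairs were Stfa1 and Cstdc5 (98.0%, 6 of 294 bases differing), Stfa2l1 and Stfa2 (96.5%, 11 of 312), and Cstdc6 and Cstdc5 (95.5%, 13 of 291). The first 120 coding bases of Stfa2l1 and Stfa2 are shown because 7 of the 11 differing bases of this pair lie there. Capitals in the second sequence mark bases that differ from the first.
Stfa2l1: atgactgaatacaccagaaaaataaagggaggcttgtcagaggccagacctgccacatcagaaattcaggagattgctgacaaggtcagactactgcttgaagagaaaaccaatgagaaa
Stfa2: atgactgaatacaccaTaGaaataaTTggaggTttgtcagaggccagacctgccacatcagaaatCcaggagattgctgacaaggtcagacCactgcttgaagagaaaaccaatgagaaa

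The trio of Cstdc5, Stfa1, and Cstdc6 is shown over the same 285 aligned coding bases, up to and including the stop codon, since it holds the only members whose counts were not whole. Capitals in Stfa1 and Cstdc6 mark bases that differ from Cstdc5, 5 in Stfa1 and 9 in Cstdc6.
Cstdc5: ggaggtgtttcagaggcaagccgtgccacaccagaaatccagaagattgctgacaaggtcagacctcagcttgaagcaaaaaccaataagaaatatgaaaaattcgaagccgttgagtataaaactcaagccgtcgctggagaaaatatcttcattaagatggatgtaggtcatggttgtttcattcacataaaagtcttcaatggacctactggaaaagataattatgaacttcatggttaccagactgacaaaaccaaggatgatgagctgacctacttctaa
Stfa1: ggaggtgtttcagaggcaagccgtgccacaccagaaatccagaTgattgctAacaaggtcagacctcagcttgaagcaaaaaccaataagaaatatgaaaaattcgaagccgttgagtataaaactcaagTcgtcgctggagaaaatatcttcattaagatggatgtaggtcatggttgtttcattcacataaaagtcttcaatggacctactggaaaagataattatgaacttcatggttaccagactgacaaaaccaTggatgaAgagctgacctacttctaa
Cstdc6: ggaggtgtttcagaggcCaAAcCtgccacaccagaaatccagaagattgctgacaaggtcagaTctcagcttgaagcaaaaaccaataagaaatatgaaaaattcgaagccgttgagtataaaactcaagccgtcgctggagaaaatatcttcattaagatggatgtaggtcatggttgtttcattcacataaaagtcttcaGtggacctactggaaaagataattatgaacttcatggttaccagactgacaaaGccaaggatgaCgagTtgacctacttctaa

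Stfa1 and Cstdc5 share an unbroken run of 128 bases, and Cstdc6 and Cstdc5 one of 138 bases. No window of 150 bases, the read length of the study, was shared by any pair of these transcripts. In the deposited expected counts, reads were nevertheless split among some of these genes. An expected count divides a read that matches several transcripts among them, and Stfa2l1, Cstdc4, Stfa2, and Stfa3 had whole numbers in all 5 libraries (to within 0.01). Cstdc5 was whole in 1 library and Cstdc6 and Stfa1 in 2 each, whereas the sum of these 3 genes was whole in all 5. The fractions were therefore exchanged within this trio, and the sum over the 7 genes did not depend on how they were split.

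Summed over the cluster, the stefin A genes were 2.40-fold higher in the macrophages that had Adam17-/- 4T1 cells across the membrane. The sum was 840 and 626 counts in WT replicates 1 and 2, and 1964, 1085, and 1917 counts in KO replicates 1, 2, and 3. Scaled to the TMM-normalized library total (CPM), this was 44.0 and 33.9 against 107, 71.4, and 102 CPM, or 38.9 ± 7.13 (SD, n = 2) against 93.5 ± 19.4 (SD, n = 3). All KO libraries lay above both WT libraries, and KO replicate 2 was the lowest of its group. The log2 fold change was 1.27 with a standard error of 0.179, where the median over all genes tested was 0.01.

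**Figure D1:**
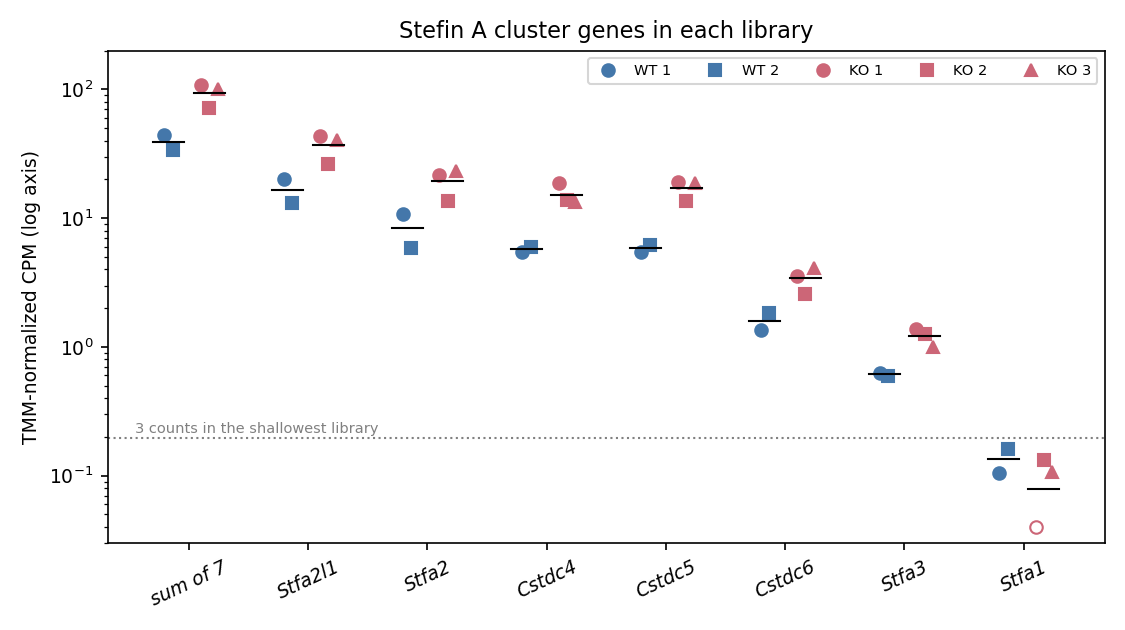
Level of each stefin A gene and of their sum in each library, as TMM-normalized CPM on a log axis, with 1 point per library and a bar at the group mean. The 3 KO libraries lie above both WT libraries for the sum and for 6 genes, while Stfa1 lies under 3 counts of the shallowest library (dotted line, 0.197 CPM), with an open symbol where its count was 0.

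Stfa2l1, a stefin A2-like copy, held the most counts of the cluster. It had 20.1 and 13.2 CPM in the WT libraries and 43.3, 26.3, and 40.6 CPM in the KO libraries. The WT libraries differed by 1.52-fold from each other, and the lowest KO library was 1.31-fold above the higher WT library. Its log2 fold change was 1.14 (standard error 0.227), which fell to 0.88 with WT replicate 2 left out.

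Stfa2, which encodes stefin A2, showed the same order of libraries within WT and the widest WT spread of the cluster. Its levels were 10.8 and 5.84 CPM in WT and 21.7, 13.6, and 23.5 CPM in KO. WT replicate 1 was 1.85-fold above WT replicate 2, and the lowest KO library was 1.26-fold above WT replicate 1. The log2 fold change of 1.24 (standard error 0.276) moved to 0.86 without WT replicate 2 and to 1.75 without WT replicate 1.

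Cstdc4 and Cstdc5 were steady in WT and the most separated between the groups. Both encode predicted stefin A-like proteins, named for their cystatin domain. Cstdc4 had 5.49 and 6.01 CPM in WT and 18.6, 13.8, and 13.3 CPM in KO, a log2 fold change of 1.41 (standard error 0.177). Cstdc5 had 5.44 and 6.22 CPM in WT and 19.0, 13.7, and 18.9 CPM in KO, a log2 fold change of 1.56 (standard error 0.175), the largest of the cluster in this fit. Without WT replicate 1 that of Stfa2 was larger (1.75 against 1.47). Cstdc4 was slightly above Cstdc5 without KO replicate 3 (1.52 against 1.51) and with the replicate number as a block. The WT libraries differed by 1.09-fold for Cstdc4 and 1.14-fold for Cstdc5, and the lowest KO library was 2.21-fold and 2.20-fold above the higher WT library.

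Cstdc6 and Stfa3 had fewer counts. Cstdc6, another cystatin domain gene, had 1.36 and 1.84 CPM in WT and 3.56, 2.57, and 4.13 CPM in KO, or 1.11 as log2 fold change (standard error 0.275), which was 0.90 without WT replicate 1 and 0.96 without KO replicate 3. Stfa3, which encodes stefin A3, had only 12 and 11 counts in WT and 25, 19, and 19 in KO. These counts were 0.628 and 0.595 CPM against 1.37, 1.25, and 1.01 CPM, or 0.97 as log2 fold change (standard error 0.348). The groups did not overlap for either gene.

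Stfa1, which encodes stefin A1, was at the floor of detection in every library. It had 2.00 and 3.03 expected counts in WT, none in KO replicate 1, and 2.04 and 2.02 in KO replicates 2 and 3. A count of 3, taken as the floor, was 0.157 to 0.197 CPM, and the absence of counts in KO replicate 1 allows up to 0.164 CPM. It did not pass the filter on low counts, and no fold change is given. Its coding sequence differs from that of Cstdc5 by 6 bases, and Cstdc5 had 104 to 357 counts in the same libraries.

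In total, 6 of the 7 genes passed the filter and all 6 had every KO library above both WT libraries, with a median log2 fold change of 1.19. Over all 12576 genes tested, 28.4% had every KO library above both WT libraries. A call needed both an adjusted p up to 0.05 from edgeR (Benjamini-Hochberg) and a log2 fold change of 1 or more in size. By this limit 5 members were called higher (Stfa2l1, Cstdc4, Cstdc6, Cstdc5, and Stfa2), against 3.36% of all genes tested. Since this contrast chose the cluster, nothing is read from that count. Just inside the limit lay Cstdc6 with a log2 fold change of 1.11, and just outside lay Stfa3 with 0.97. In macrophage cultures sequenced in bulk, a change in the number of cells that express these genes and a change in their RNA per cell cannot be told apart.

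Compared per length, as the deposited FPKM values, Stfa2l1 stood first in both groups, with 45.1 ± 11.8 FPKM in WT (SD, n = 2) and 110.8 ± 27.6 FPKM in KO (SD, n = 3). Stfa2 followed with 22.0 and 57.5 FPKM. Its range overlapped that of the next gene in both groups, Cstdc4 in WT (15.7 FPKM) and Cstdc5 in KO (46.6 FPKM). Cstdc4 and Cstdc5 also overlapped each other in both groups (14.3 FPKM for Cstdc5 in WT and 46.0 FPKM for Cstdc4 in KO). Cstdc6 (4.74 and 11.2 FPKM), Stfa3 (1.68 and 3.67 FPKM), and Stfa1 (0.365 in WT, and not listed and so taken as 0 in 1 KO library) came below them without overlap between neighbors in the order, except that the order at Stfa1 rests on counts at the floor.

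The make-up of the cluster also varied between libraries of the same group. Stfa2l1 held 45.7% of the cluster's counts in WT replicate 1 (95% exact binomial interval 42.3% to 49.2%) and 39.0% in WT replicate 2 (35.1% to 42.9%). In the KO libraries its share was 40.3%, 36.9%, and 40.0%, and so lay between the WT shares except in KO replicate 2. Cstdc5 held 12.4% in WT replicate 1 (10.2% to 14.8%) and 18.4% in WT replicate 2, against 17.7% to 19.2% in KO. The intervals cover counting error only.

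**Figure D2:**
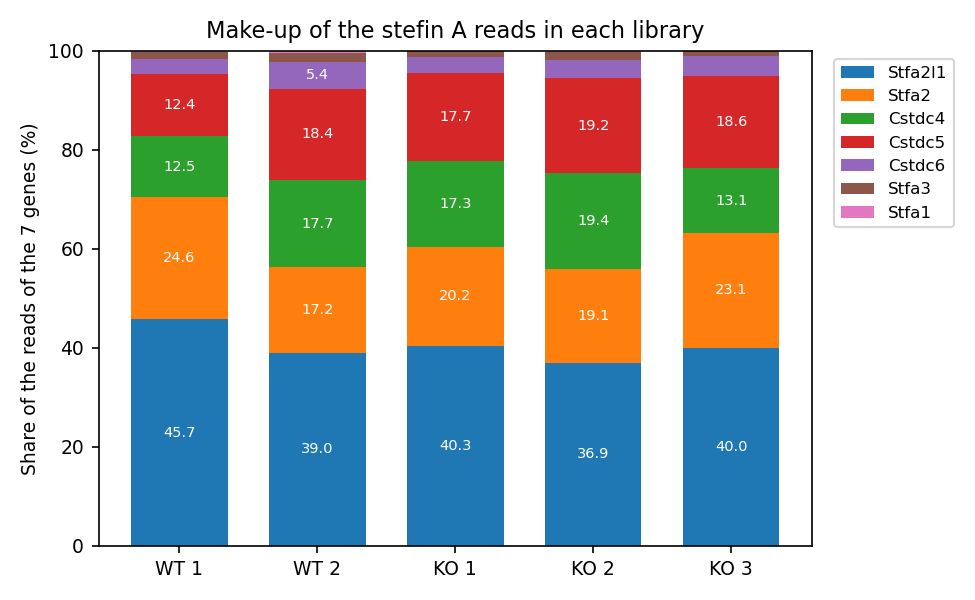
Share of each gene in the counts of the 7 stefin A genes, as stacked bars in percent for each of the 5 libraries. Stfa2l1 holds 36.9% to 45.7%, and WT replicate 1 has the lowest shares of Cstdc4 (12.5%) and Cstdc5 (12.4%).

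A ratio of counts within a library is independent of its scaling and was not used to choose the genes. Of 7 ratios computed, Stfa2 to Stfa2l1, the pair with 96.5% coding identity, was steady, at 0.539 and 0.443 in WT and 0.501, 0.517, and 0.578 in KO, with overlapping intervals. Stfa2 to Cstdc4 was not. It was 1.97 in WT replicate 1 (95% exact interval 1.55 to 2.52) and 0.973 in WT replicate 2 (0.740 to 1.28). In KO it was 1.17, 0.986, and 1.77 in replicates 1, 2, and 3, and the interval of replicate 3 (1.51 to 2.07) did not reach that of replicate 2 (0.810 to 1.20). Stfa2l1 to Cstdc4 was likewise higher in WT replicate 1 and KO replicate 3 than in the rest, with 3.66 and 2.20 in WT and 2.33, 1.91, and 3.06 in KO. Within each group Stfa2 and Stfa2l1 thus varied against Cstdc4 by more than counting error, and the WT and KO values of both ratios overlapped. The groups did not overlap for Cstdc6 to Cstdc5, at 0.25 and 0.296 in WT and 0.187, 0.188, and 0.218 in KO, or for Stfa3 to Cstdc4, at 0.114 and 0.099 in WT and 0.074, 0.090, and 0.076 in KO. For both, the intervals of every WT and KO library overlapped, and with 2 against 3 libraries an exact permutation test cannot give a p under 0.1. Ratios that hold Cstdc5 or Cstdc6 also depend on how shared reads were split, which the intervals do not cover. Cstdc5 to Stfa2l1 was 0.271 in WT replicate 1 and 0.439 to 0.520 in the other libraries. Cstdc5 to Cstdc4 lay between 0.990 and 1.04 in 4 libraries and was 1.42 (1.21 to 1.68) in KO replicate 3.

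A like grouping appeared in the log2 CPM profiles, each centered on its mean over the 5 libraries. The smallest root mean square difference between members was that of Stfa2l1 and Stfa2 (0.124), followed by Cstdc4 and Cstdc5 (0.198) and Cstdc6 and Cstdc5 (0.264), and the largest was that of Stfa2 and Stfa3 (0.465). Stfa2l1 and Stfa2 lie far apart in the locus and on opposite strands. Cstdc4 and Cstdc5 also lie on opposite strands, with a coding identity of 80.6%. With 5 libraries these are descriptions of likeness only, and those of Cstdc5 and Cstdc6 also depend on how shared reads were split.

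By the same measure over the other 12570 genes tested, the 5 genes most like the cluster sum were Pgbd1, Card10, Rab37, Ovgp1, and Prok2 (0.0957 to 0.105). Pgbd1, Card10, and Rab37 were low, at 0.541 to 2.17 CPM over the libraries. Prok2, a secreted chemoattractant, had 4.92 and 3.90 CPM in WT and 11.9, 7.37, and 9.64 CPM in KO. The genes most like Cstdc5 were Jam2, Phxr4, and Lin28a (0.0553 to 0.105), and those most like Stfa2l1 were Bcl2l14, Pdcd1lg2, and Ggnbp1 (0.0911 to 0.109). Phxr4, Lin28a, and Bcl2l14 were also low, at 0.216 to 2.13 CPM over the libraries, where counting error weighs on the likeness.

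The members' promoters were compared, from RefSeq sequences of GRCm38.p6 that run from 250 bases before to 50 after each annotated start. A promoter was found for 6 of the 7 genes, all but Cstdc6. The stretch from -100 to 20 around the start is shown, 5′ to 3′ on the gene's own strand, for the 4 most abundant members: chr16:36156711-36156830 (plus) for Stfa2l1, chr16:36408344-36408463 (minus) for Stfa2, chr16:36184112-36184231 (plus) for Cstdc4, and chr16:36367551-36367670 (minus) for Cstdc5. Capitals mark TTTAAA and the reverse complement of GAGGAA, which in Cstdc5 lies further upstream, at -248.
Stfa2l1: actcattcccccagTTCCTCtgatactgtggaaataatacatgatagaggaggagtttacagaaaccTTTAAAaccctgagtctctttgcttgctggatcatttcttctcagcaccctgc
Stfa2: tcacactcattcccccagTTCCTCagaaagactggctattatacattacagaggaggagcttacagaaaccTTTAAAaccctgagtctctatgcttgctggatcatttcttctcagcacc
Cstdc4: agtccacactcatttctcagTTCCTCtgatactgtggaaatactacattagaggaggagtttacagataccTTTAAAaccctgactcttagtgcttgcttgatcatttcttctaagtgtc
Cstdc5: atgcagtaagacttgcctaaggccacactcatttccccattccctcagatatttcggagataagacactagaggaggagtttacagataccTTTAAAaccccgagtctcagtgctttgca

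The aligned promoters were 96.4% identical between Cstdc5 and Stfa1, and 92.9% between Stfa2 and Stfa2l1. The lowest identity was 71.1%, between Stfa3 and Cstdc4. On both strands and over the full window, GAGGAA, the core of the motif of the myeloid factor PU.1, was found in 6 of 6 promoters, against 28.3% of 32817 mouse promoters of the same length. A C/EBP motif, TTNNGNAAT, was found in 0 of 6 (11.5% of all) and TATAAA in 0 of 6 (13.6% of all). An AP-1 motif, TGANTCA, was present in Stfa3 only (7.8% of all), a STAT motif, TTCNNNGAA, in Cstdc4 only (8.3% of all), and an E-box, CANNTG, in 5 of 6 (72.3% of all).

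The letters TTTAAA, chosen after the promoters had been seen, were in 6 of 6 (13.2% of all) and lie inside a run, acctttaaaaccc, that all 6 share and that occurs in 9 of the 32817 promoters. TTTAAA began between -33 and -29 in 5 of the genes and at -9 in Cstdc5, whose annotated start lies closer to that run. A second run, gatcatttcttct, was also in all 6 and in 10 promoters overall. These matches are descriptions of letters, and the copies share most of their sequence.

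Around the members, the locus held few other transcripts. Of the genes inside it, Csta3, a further stefin A-type copy, had 7 and 2 counts in WT and 16, 9, and 14 in KO, which was 0.366 and 0.108 against 0.876, 0.592, and 0.741 CPM. With such low WT counts, Csta3 could pass the filter on low counts only through the KO libraries. It was not tested where at least 10 counts were required in every library. It passed the edgeR test (log2 fold change 1.61, adjusted p = 0.0479), but its adjusted p was 0.132 in DESeq2 and above 0.05 with WT replicate 2 or any KO replicate left out. Its log2 fold change was 2.70 without WT replicate 1 and 1.00 without WT replicate 2, and its adjusted p ranged from 0.0076 to 0.238 over the alternatives. Csta2, Cstdc3, and Gm7260 were not listed in any library, and the pseudogene Gm6815 had 4.01 to 8.01 counts.

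**Figure D3:**
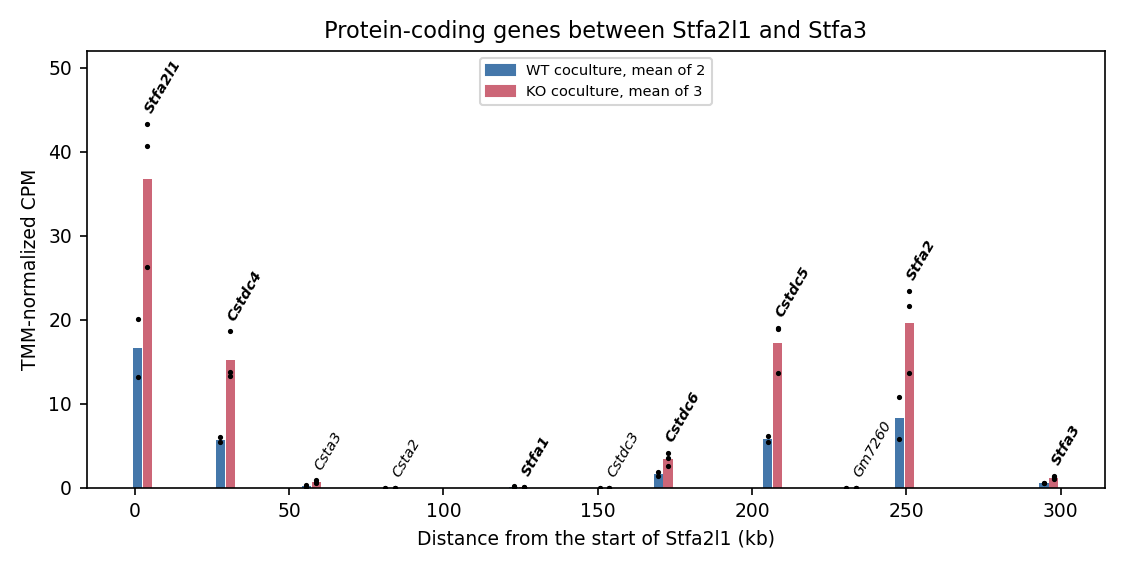
TMM-normalized CPM of the protein-coding genes of the locus against their distance in kb from the start of Stfa2l1, as the mean of 2 WT and of 3 KO libraries (bars) with each library as a dot; the described genes are in bold. Stfa2l1, Cstdc4, Cstdc5, and Stfa2 stand out, and the low genes Csta3, Csta2, Stfa1, Cstdc3, and Gm7260 lie among them.

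Within 500 kb of the locus on either side, and including the genes between the members, 15 of 40 annotated genes were tested and 6 were higher at an adjusted p of 0.05 or less from edgeR, while the other 9 did not pass. Of all genes tested, 14.9% were higher by this limit. The 6 included Csta3, which passed the filter on low counts only through the KO libraries. The count of 6 fell to 1, 3, and 2 with KO replicates 1, 2, and 3 left out. The median log2 fold change of the 15 was 0.29. The members' median was 1.19, but their cluster was chosen for the rise of Cstdc5 and Stfa2l1 in this contrast. Nothing is therefore read from the difference. The nearest tested gene before the locus, Ccdc58 at 64.7 kb, encodes a mitochondrial protein and had a log2 fold change of 0.31 (adjusted p = 0.122). The nearest after it, Cd86 at 113.6 kb, encodes a costimulatory ligand of antigen-presenting cells and had 0.16 (adjusted p = 0.219). Both passed with library size only (adjusted p = 0.0416 and 0.0486) and in the limma fits, and Cd86 also without WT replicate 2 (0.27, edgeR adjusted p = 0.0124), against 0.04 without WT replicate 1. Among the most abundant of these neighbors, Golgb1, a Golgi membrane protein, had 0.38 (adjusted p = 0.00762), Dtx3l, an E3 ubiquitin ligase, had 0.29 (adjusted p = 0.0234, but 0.0719 to 0.0861 with a KO replicate left out), and Parp14, a mono-ADP-ribosyltransferase, had -0.01 (adjusted p = 0.929).

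The other inhibitors of the family were read next. Of 25 other cystatin genes, Csta3 included, 7 were listed and 4 tested. Cstb, which encodes stefin B, fell, from 215 and 233 CPM in WT to 172, 178, and 165 CPM in KO (log2 fold change -0.38, edgeR adjusted p = 0.00763). The secreted cystatin C, Cst3, had 518 ± 21.8 (SD, n = 2) and 485 ± 35.3 CPM (SD, n = 3), with a log2 fold change of -0.10 that did not pass the test. Cst7, which encodes cystatin F of lysosomes, was near 1 CPM (log2 fold change 0.24, edgeR adjusted p = 0.680). The fall of Cstb did not pass when libraries were scaled by size only (adjusted p = 0.0602), and its adjusted p ranged from 0.000776 to 0.0935 over the alternatives.

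The cysteine cathepsins, the known targets of stefins, were read as a list of 11 genes that includes Lgmn, which encodes legumain, a target of other cystatins. Of these, 10 were tested and Ctsw was not. By edgeR at an adjusted p of 0.05 or less, 4 were lower and 2 higher, against 16.8% and 14.9% of all genes tested, or 31.7% in either direction. The lower ones were Ctsb (log2 fold change -0.56, adjusted p = 0.00999), Ctsl (-0.51, adjusted p = 0.00795), Ctsz (-0.45, adjusted p = 0.0188), and the asparaginyl endopeptidase gene Lgmn (-0.59, adjusted p = 0.00678). Ctsb, a broad lysosomal protease, went from 7589 ± 1491 CPM in WT (SD, n = 2) to 5152 ± 341 CPM in KO (SD, n = 3). Ctsl, another, went from 3174 ± 66.8 to 2229 ± 272 CPM. Without WT replicate 1 the log2 fold changes of Ctsb and Ctsz were -0.35 and -0.24, and without WT replicate 2 they were -0.75 and -0.64. The higher ones were the aminopeptidase Ctsh, from 226 ± 1.42 to 286 ± 15.7 CPM (log2 fold change 0.34, adjusted p = 0.0126), and Ctsk, known from osteoclasts, which had 8.79 ± 1.79 CPM in WT (0.76, adjusted p = 0.0162). The other 4 did not pass, with Ctss at 0.24 (adjusted p = 0.0872), Ctsc at -0.21 (adjusted p = 0.149), Ctso at 0.11 (adjusted p = 0.464), and Ctsf at 0.06 (adjusted p = 0.698). Ctsc passed without WT replicate 1 (-0.36, edgeR adjusted p = 0.00542) and Ctso without WT replicate 2 (0.28, adjusted p = 0.0149). With KO replicate 1 left out, 3 of the 10 passed, and with scaling by library size only the fall of Ctsz had an adjusted p of 0.0591, and it also missed 0.05 without WT replicate 1 or any KO replicate (9.62e-05 to 0.0888 over its alternatives) and Ctss passed at 0.0192 (0.00994 to 0.318).

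**Figure D4:**
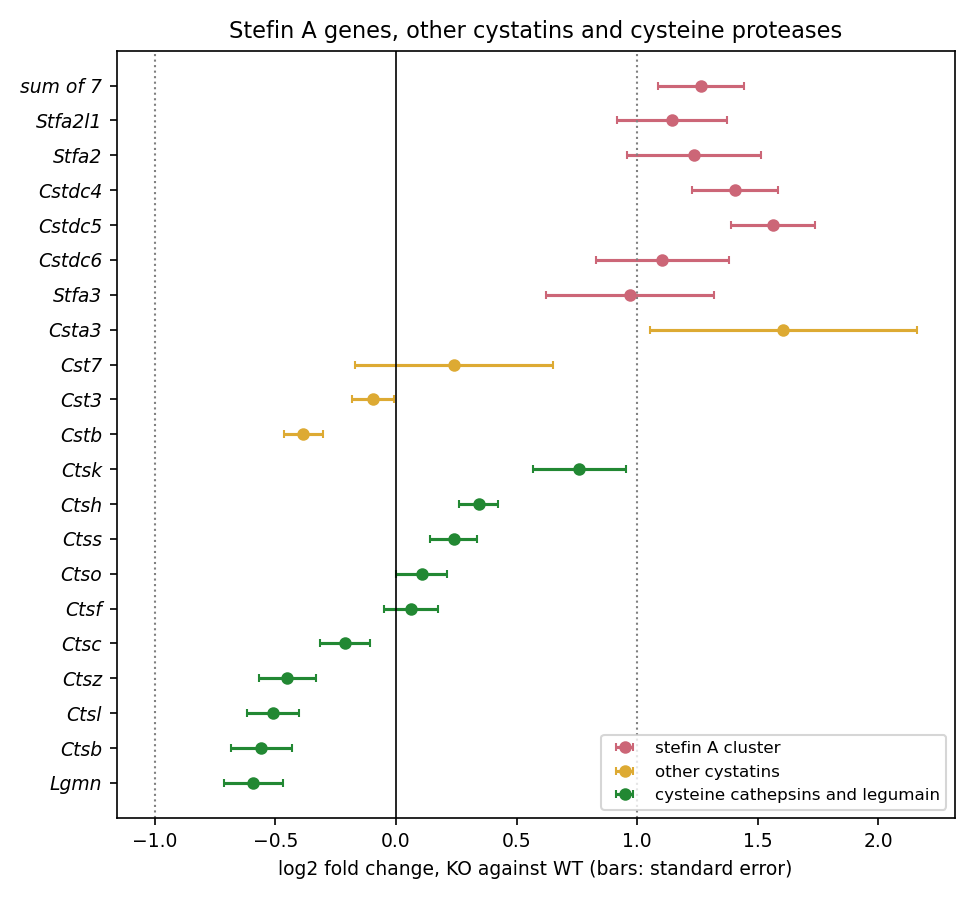
Log2 fold change between KO and WT libraries with its standard error for the stefin A genes and their sum, the other tested cystatins, and the tested cysteine cathepsins and legumain; dotted lines mark a log2 fold change of 1 in size. The stefin A genes lie between 0.97 and 1.56, the proteases between -0.59 and 0.76, and Cstb at -0.38.

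Because neutrophils are a known site of stefin A expression and can persist in marrow cultures, a list of 16 late neutrophil genes was read beside the cluster. All 16 were tested and 14 were higher in KO at an adjusted p of 0.05 or less (edgeR), against 14.9% of all those tested. Their median log2 fold change was 1.35. Ngp, a granule protein, had 50.9 and 40.3 CPM in WT and 175, 208, and 156 CPM in KO (log2 fold change 1.97, adjusted p = 0.000145). S100a8, a calcium-binding protein of the neutrophil cytosol, had 63.6 and 65.5 CPM against 232, 227, and 207 CPM (1.78, adjusted p = 5.15e-05). Ltf, the iron-binding lactotransferrin, had 20.8 and 18.2 CPM against 83.4, 107, and 75.3 CPM (2.18, adjusted p = 0.000145). The neutrophil surface marker Ly6g was low, at 2.46 and 1.84 CPM against 7.44, 6.51, and 8.95 CPM (1.83, adjusted p = 0.000641). Further genes that passed with a log2 fold change over 1 were S100a9 (1.73), Wfdc21 (1.51), Padi4 (1.46), Lcn2 (1.24), Retnlg (1.23), Cxcr2 (1.17), and Camp (2.04, at 0.108 to 1.16 CPM over the libraries). Cxcr2 was under that limit without WT replicate 2 (0.90). Camp, at 0.366 and 0.108 CPM in WT, could pass the filter on low counts only through the KO libraries. With at least 10 counts required in every library it was not tested, and 13 of 15 late neutrophil genes passed. Camp had a log2 fold change of 3.13 without WT replicate 1 and did not pass without WT replicate 2, where it was 1.44 (edgeR adjusted p = 0.0712, and 0.00274 to 0.0712 over its alternatives). Csf3r passed with 0.59, while Mmp8 (0.14, adjusted p = 0.318) and Cebpe (0.28, adjusted p = 0.323) did not. The summed level of the list was 1819 to 1915 CPM in WT and 2990 to 3375 CPM in KO, of which Mmp8 alone gave 913 to 1176 CPM.

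KO replicate 2, the lowest KO library for the stefin A sum, was also the lowest for 4 of the 16 late neutrophil genes (Ly6g, Camp, Retnlg, and Il1r2), lay in the middle for 6, and was the highest for 6, Ngp and Ltf among them. It was the highest for 7 of the 8 primary granule genes of early granulocytes, such as Mpo, with 63.2 CPM against 14.4 and 18.5 CPM in KO replicates 1 and 3, and Elane, with 37.0 against 14.6 and 15.2 CPM. Mpo, Elane, Srgn, Cebpe, Il1r2, F13a1, Vcan, Pf4, Ppbp, Lyz2, Itgam, Csf1r, Mertk, and Lgals3 were named after their values had been seen. Of the 8 primary granule genes tested, 4 were higher at an adjusted p of 0.05 or less (edgeR), against 14.9% of all those tested. The other 4, Mpo included (adjusted p = 0.0581), did not pass, and the summed level was 311 to 413 CPM in WT and 519 to 585 CPM in KO. Most of that sum was Srgn, a proteoglycan core protein of many blood cells, at 269 and 386 CPM in WT and 493, 381, and 520 CPM in KO. Without KO replicate 2, the log2 fold change of the stefin A sum was 1.44.

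**Figure D5:**
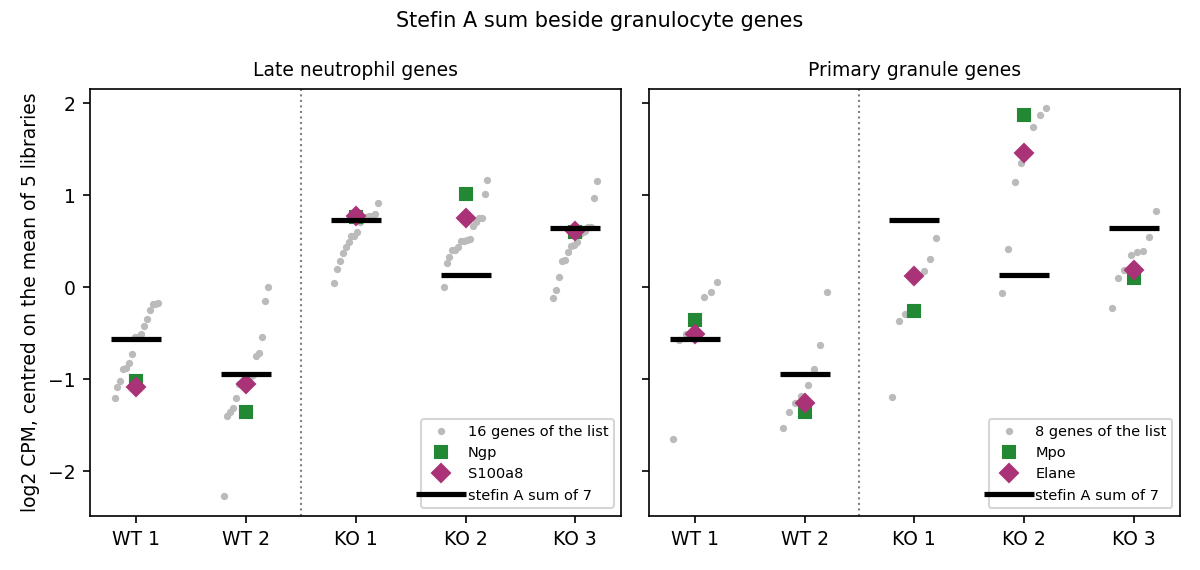
Log2 CPM of the 16 late neutrophil genes (left) and the 8 primary granule genes (right) in each library, each gene centered on its mean over the 5 libraries, with the stefin A sum as a black bar. The sum is lower in KO replicate 2 than in the other KO libraries, as are 4 of the 16 late neutrophil genes, whereas 6 of the 16 and 7 of the 8 primary granule genes are highest in that library.

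Macrophage markers identified the labeled cell type in every library. Their summed level was 29193 to 30133 CPM in WT and 19380 to 21341 CPM in KO. Most of it was Lyz2 (means of 12681 CPM in WT and 8063 CPM in KO) and Itgam (7128 and 4579 CPM). By edgeR at an adjusted p of 0.05 or less, 7 of 10 were lower in KO. The other 3 did not pass, with Csf1r at -0.29 (adjusted p = 0.0520), Mertk at -0.06 (adjusted p = 0.572), and Lgals3 at -0.03 (adjusted p = 0.806). Of all genes tested, 16.8% were lower and 14.9% higher by this limit. The monocyte list had 6 of 8 genes higher and 2 lower, but its summed level was 2891 to 3632 CPM in WT and 1948 to 2393 CPM in KO, and the 2 lower genes, F13a1 and Vcan, gave most of it. The megakaryocyte list also had 6 of 8 higher and 2 lower, with a sum of 2282 to 2400 CPM in WT and 1192 to 1343 CPM in KO, most of it from its 2 lower genes, Pf4 and Ppbp. The eosinophil list had 2 of 4 tested genes higher, with a sum of 5.25 to 7.64 CPM in WT and 14.8 to 21.4 CPM in KO. Epithelial genes summed to 11.5 to 14.3 CPM over all libraries, with Cdh1 as the only one tested, and it did not pass. Of the keratinocyte genes, read because stefin A is also made in skin, 2 were tested and did not pass. Of the lymphocyte genes 1 was tested and did not pass, and mast cell and basophil genes summed to at most 2.37 CPM, with none tested. The part that a changed share of granulocytes or macrophages has in the stefin A values was not tested.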

How the data were processed

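Poly-A RNA of 5 BMDM libraries (2 WT, 3 KO, grouped by the sample labels) was analyzed. According to the methods, the authors sequenced 150-base read pairs on a BGISEQ-500 and used HISAT, Bowtie2, and DESeq2 with GRCm38, with expression given as RPKM. The submitters' processing notes name Bowtie, Bowtie2, RSEM, DESeq2, and mm10. The files hold columns of expected counts and FPKM, which were treated as RSEM output, although the methods do not name it; tool versions and the handling of strand are not given in the sources used here. For each transcript, the authors deposited an expected count without normalization, together with FPKM, scaled to length and library size. Transcripts under 0.01 FPKM were not listed and were taken as 0.

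Expected counts were summed per Entrez Gene, rounded, and tested in edgeR 4.0.16 with R 4.3.3 (TMM, filterByExpr, glmQLFit, glmQLFTest, no covariates, Benjamini-Hochberg adjustment over 12576 genes). The cluster sum replaced the 7 members as 1 row of its own fit. Standard errors are the log2 fold change divided by the root of F. Log2 CPM profiles used a prior count of 2. The fit was first tested on simulated data. Symbols matched 17015 of 17058 Entrez numbers in the RefSeq table. Sequences came from GENCODE transcripts and RefSeq promoters of GRCm38 and were aligned with Biopython 1.88. Reads without molecular identifiers are not independent, so intervals and the floor of 3 counts cover counting error only. Python 3.11.15, pandas 2.3.3, scipy 1.17.1, and matplotlib 3.10.9 were also used.

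The members, the lists, and the tests were chosen with earlier results of these data known. Genes were named by a rule: all members, all tested cathepsins, list genes called by the limits given above, the 3 most abundant of each list of cystatins, neighbors, and late neutrophil genes, the nearest tested gene on each side, and the 5 or 3 genes of most similar profile. Genes named outside this rule are marked or described with the locus. The alternatives were library size only, upper quartile factors, DESeq2 1.42.0, no filter, at least 10 counts in every library, limma 3.58.1 on log2(FPKM + 0.1) and log2(FPKM + 1), the replicate number as a block, each library left out in turn, counts rounded down, and members with whole counts only.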

Additional observations from a re-analysis of the deposited data

How the results depend on the processing

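The log2 fold change of the stefin A sum was 1.09 to 1.46 over 15 alternatives, from without WT replicate 2 to without WT replicate 1, and 1.18 with the replicate block. Of 88 alternative values of the 6 tested members, 88 were higher in KO; Stfa1, at the floor, is not among them. The moved ones were Stfa2 without WT replicate 1 (1.75) and Stfa3 with limma on log2(FPKM + 1) (0.79). Members called higher were 6 with library size only, upper quartile factors, and limma on log2(FPKM + 0.1), 4 with the replicate block, 3 of 4 with whole counts only, where fewer members are tested, and 3 to 5 with 1 library left out. Cstdc6 was called in 12 of 15 settings, and not with the block (0.94), without WT replicate 1 (0.90), or without KO replicate 3 (0.96). The 3 were reached without WT replicate 2, where Stfa2l1 (0.88) and Stfa2 (0.86) fell under the limit. Library size only and the limma fits moved the median of all genes to 0.16, 0.15, and 0.11, and the stefin A sum less that median was then 1.26, 1.24, and 1.28. Cathepsins passing were 3 to 8 with 1 library left out, the lowest without KO replicate 1. Other cystatins passing were 1 with library size only, DESeq2, no filter, at least 10 counts, and both limma fits, 0 with the replicate block, and 0 to 2 with 1 library left out. Neighbors passing were 10 with library size only, 2 with the replicate block, and 1 to 7 with 1 library left out. Some genes that missed the test changed sign. Cst3 was 0.050 with library size only and 0.051 in both limma fits. Parp14 was 0.13 with library size only, 0.045 with upper quartile factors, 0.0023 with at least 10 counts, 0.14 and 0.13 with limma, and 0.021 with the replicate block. Ctsf was -0.022 with the block. With 1 library left out, the ranges were -0.29 to 1.1 for Cst7, -0.0043 to 0.12 for Ctsf, -0.052 to 0.28 for Ctso, and -0.065 to 0.039 for Parp14. The cause of these changes was not tested. Replicate numbers showed no sign of pairing (correlation of deviations -0.124 and -0.05). With 2 WT libraries the WT deviations mirror each other, so these values cannot tell whether libraries were paired, and the block describes shared numbers only. With it, Ctsh (adjusted p = 0.158), Csta3, Cstb, Dtx3l, and Golgb1 no longer passed. Depth limits Stfa1, at 3.03 expected counts or fewer, and Stfa3, at 11 to 25.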
